A study of Mus musculus with 8 samples.

Results

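The genes described here encode the subunits of the mitochondrial respiratory chain and ATP synthase, with a few of their assembly factors. They were taken by name from an expression microarray, as every gene whose symbol begins with Nduf, Uqcr, Cox4i, Cox5, Cox6, Cox7, Cox8 or Atp5, together with Sdha, Sdhb, Sdhc, Sdhd, Cyc1 and Cycs. The rule found 89 of the 31896 named genes on the array, measured by 121 probes in 130 spots. The naming rule itself used no measured value, but the members were chosen with earlier results of these data known.

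The RNA came from cultures of satellite cells (muscle stem cells) out of the extensor digitorum longus (EDL), a hindlimb muscle of mostly fast fibres. Cells called Dnmt3a-KO, as in the labels, carried a knockout of Dnmt3a, a de novo DNA methyltransferase. The controls were from wild-type (WT) littermates, and all mice were given as 8-week-old males. Both kinds of cell grew for 5 days in growth medium, were replated at equal cell number, and then spent 2, 4, 5 or 6 days in differentiation medium, in which myoblasts leave the cell cycle and fuse into myotubes. Each genotype has 1 array per day, so there are 4 Dnmt3a-KO and 4 WT arrays. Strain, the promoter of any Cre used, the number of mice per culture, and whether the days came from separate mice are not given in the sources used here. The 4 days therefore stand in for replicates. In the tests of genotype, p-values measure the spread of the difference between days, part of which may be technical. In the tests of change with day, they rest on the scatter of the arrays around a straight line. There the 2 arrays of a day count as separate.

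The respiratory chain passes electrons from NADH through complex I, or from succinate through complex II, to complex III, cytochrome c and complex IV, where oxygen is reduced. The proton gradient made on the way drives ATP synthase, complex V. A few subunits of complexes I, III, IV and V are encoded by mitochondrial DNA, and the rest, with all of complex II, are nuclear. Several complex IV subunits exist in pairs, with one form found mainly in heart and skeletal muscle and another in most tissues.

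Signals are given as the scanner software's processed signal divided by the 75th percentile of that array, so that a value of 1 equals the 75th percentile. Between 61.6% and 67.4% of the 43020 spots per array were well above background. Of the 89 genes, 82 were tested, and 81 of these were well above background on all 8 arrays. The testis forms Cox7b2 and Cox8c were at the floor of measurement on all 8 arrays. The other 5 (Atp5b, Atp5e, Atp5g3, Cox4i1 and Ndufa2) had a single probe with an unusable spot on at least 1 array. On days 2, 4, 5 and 6 Dnmt3a itself read 0.240, 0.525, 0.542 and 0.389 in Dnmt3a-KO cells, against 0.519, 2.65, 2.50 and 2.04 in WT cells, or 46.2%, 19.8%, 21.7% and 19.1% of the WT signal. The sources used here do not say which exons were removed, so this is a level and no check of the deletion.

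Some facts of the arrays touch every result below. The 2 arrays of day 2 were on a slide of their own, read with another scanner model and a later software version, days 4 and 5 shared a slide, and day 6 had its own. Each slide held both genotypes. The Y-linked gene Ddx3y read 1.39 in Dnmt3a-KO and 1.46 in WT cells on day 2 and was at the floor on all 6 later arrays. Xist, the RNA of the inactive X chromosome, was at the floor on day 2 and read 0.527 to 0.914 in Dnmt3a-KO and 0.642 to 0.782 in WT cells afterwards, which goes against the label of male mice. Of 12 myogenic markers 9 were measured and 8 were well above background on all 8 arrays. Their summed signal was 391 to 400.5 in Dnmt3a-KO and 363 to 441 in WT cells, and Myf5 was at the floor throughout. This sum is weighted to bright genes, as the 8 tested markers had a median mean signal of 25.7 and a highest of 178. In the test of change with day 3 of these 8 rose and 4 fell, where 25.9% of all genes rose and 19.5% fell. Their median change from day 2 to the later days was -0.85 log2 in Dnmt3a-KO and -0.76 in WT cells. Fibroblast and fibro-adipogenic markers (10 of 10 measured, none at the floor on every array) summed to 25.8 to 136 in Dnmt3a-KO and 28.4 to 119 in WT cells and were lowest on day 2 in both. Smooth muscle and pericyte markers summed to 105 to 125 in Dnmt3a-KO and 118 to 155 in WT cells. Macrophage, endothelial, adipocyte and Schwann cell lists each summed to at most 21.3. Of their measured markers, 5 of 8 macrophage, 2 of 6 endothelial, 4 of 8 adipocyte and 4 of 5 Schwann cell ones were well above background on all 8 arrays. Cd68, Lyz2 and Ucp1 were at the floor on all 8. The macrophage list summed to 21.3 in Dnmt3a-KO and 20.8 in WT cells on day 2, and to between 8.88 and 13.0 on later days. In bulk samples such as these fewer cells of a type and less RNA per cell cannot be told apart.

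The first question is whether loss of Dnmt3a changed the respiratory chain genes. On days 4 and 5 nearly all of them read slightly lower in Dnmt3a-KO than in WT cells, and on days 2 and 6 they did not. The median difference, Dnmt3a-KO minus WT on the log2 scale, was near 0 on day 2 (-0.02) and day 6 (0.03), but -0.23 on day 4 and -0.18 on day 5. Over all 19655 genes tested the same medians were 0.01, -0.02, -0.05 and 0.02. On days 4 and 5 the reading was below 0 for 76 of the 82 genes each time, against 52.6% and 59.2% of all genes. Both days were below 0 for 70 of the 82, against 34.5% of all genes.

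No single gene of the chain passed the test of genotype. With day as a block, limma's moderated test gave an adjusted p under 0.05 for 0 of the 82, where 2 genes of the whole array passed (0.0102%). At an unadjusted p under 0.05 there were 3 (Cox6a2, Ndufab1 and Sdhc), where 12.9% of all genes passed. The mean over the 4 days lay below 0 for 71 of the 82 (53.0% of all genes), with a median of -0.10. There were 18 genes lower on 4 of 4 days (11.5% of all genes) and 0 higher on 4 of 4 (10.9%). The differences were small, since 76 of the 82 stayed within 0.5 log2 on all 4 days. The test of a genotype-dependent day slope called 0 members and 0 of all genes (0.0%), with 2 members at an unadjusted p under 0.05, Cox6b2 and Ndufa4l2 (4.17% of all genes).

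**Figure D1:**
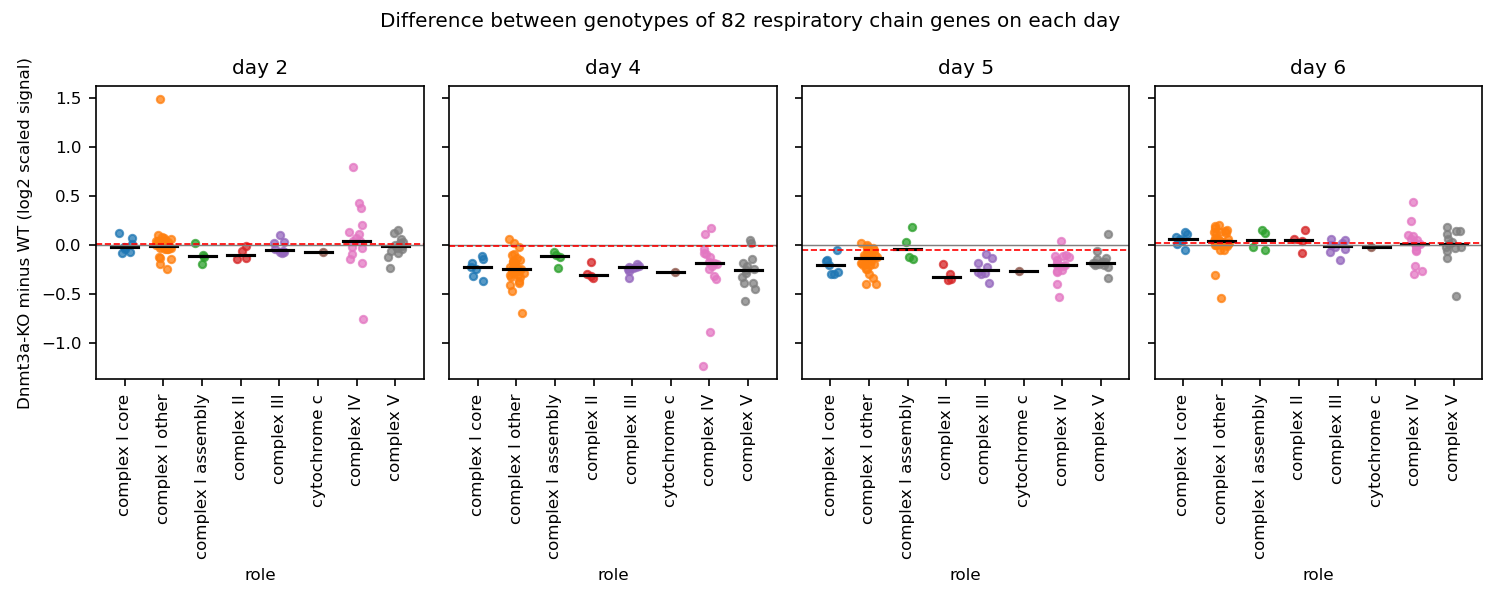
Dnmt3a-KO minus WT difference in log2 scaled signal (vertical axis) for 82 respiratory chain genes on each day, by role in the chain. Each point is 1 gene from 1 array per genotype, black bars are medians of the role, and the red dashed line is the median of all genes tested; on days 4 and 5 the points lie mostly below 0, with overall medians of -0.23 and -0.18.

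Several features of the arrays are given beside the low readings of days 4 and 5, and not all of them followed the same days. To begin with, these are the 2 days that share a slide. Next, the 75th percentile used for scaling was brighter in Dnmt3a-KO than in WT cells on those days, by 0.18 and 0.22 log2, against -0.04 on day 2 and 0.03 on day 6. Without scaling, the members' median differences were -0.07, -0.05, 0.04 and 0.06 on days 2, 4, 5 and 6. Undoing the scaling shifts every gene of a day by the same amount, so the gap between the members and all genes stays as it was. Last, 75 of the 82 genes belong to the 4914 brightest of all genes tested. These 4914 had medians of -0.06 and -0.04 on days 4 and 5, with 62.6% and 62.4% of them below 0. With quantile scaling the members' medians were -0.13 on day 4 and -0.12 on day 5, beside all-gene medians of 0.02 and -0.0039. The fibroblast markers summed to 36.1 in Dnmt3a-KO and 80.3 in WT cells on day 4, to 136 in Dnmt3a-KO and 119 in WT cells on day 5, and to 62.7 in Dnmt3a-KO and 115 in WT cells on day 6. The summed signal of the smooth muscle and pericyte markers was lower in Dnmt3a-KO cells on 4 of 4 days. The gap was largest on days 4 (111 in Dnmt3a-KO and 155 in WT cells) and 5 (116 in Dnmt3a-KO and 147 in WT cells). This sum is weighted to bright genes, as the 6 tested markers had a median mean signal of 0.654 and a highest of 119. Of these 6, 2 were lower on 4 of 4 days. On day 2 their median difference was 0.75 log2, and 3 of the 6 were 2-fold or more higher in Dnmt3a-KO cells. The part of the slide, of brightness and of these cells was not tested. Spots of the same probe on 1 array had a median SD of 0.06 log2 on day 2 and 0.14 to 0.16 on the other days.

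Complex II, which oxidises succinate and is also an enzyme of the citrate cycle, had 4 of 4 genes below 0 on both days 4 and 5, with medians of -0.31 and -0.33. Sdhc, a membrane anchor, read 15.0, 12.5, 13.0 and 13.3 on days 2, 4, 5 and 6 in Dnmt3a-KO cells, against 16.5, 15.7, 14.9 and 14.1 in WT cells. It was lower on each day, although the 2 groups overlap, by a mean of -0.19 ± 0.10 log2 (SD over 4 days). The adjusted p was 0.38 by limma (unadjusted 0.046). A second probe of Sdhc gave an opposite sign for its day slope. Sdha, the flavoprotein, had the mildest mean difference of the 4 at -0.08 log2.

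The 7 core subunits of complex I, which carry its flavin and iron-sulphur centres, were all below 0 on days 4 and 5 and had medians of -0.23 and -0.21. Among them the mean difference ran between -0.17 for Ndufs8 and -0.03 for Ndufs3. The 30 other genes, placed with complex I by their Nduf names alone, had medians of -0.24 and -0.13. The lowest was Ndufab1, the mitochondrial acyl carrier protein, which also serves fatty acid synthesis. It read 1.53, 0.913, 1.30 and 1.04 in Dnmt3a-KO cells, against 1.82, 1.48, 1.49 and 1.29 in WT cells. It was lower on 4 of 4 days by -0.36 ± 0.23 log2 (SD), with an adjusted p of 0.32 by limma. Ndufa6, an accessory subunit, stood at the other end with 0.08 ± 0.10. The 4 assembly factors of the Ndufaf group had medians of -0.12 and -0.05 on those days.

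Complex III was below 0 in 8 of 8 genes on each of days 4 and 5, with medians of -0.23 and -0.25. Cyc1, cytochrome c1, read 41.6, 31.3, 31.2 and 28.7 in Dnmt3a-KO cells, against 43.7, 37.1, 38.4 and 30.1 in WT cells, a mean difference of -0.17 ± 0.12 (SD; adjusted p 0.43 by limma). Cycs, the soluble carrier between complexes III and IV, read 44.3, 47.0, 44.8 and 46.4 in Dnmt3a-KO cells and 46.6, 56.8, 53.8 and 47.0 in WT cells. Complex V had medians of -0.26 and -0.18. Its lowest member was Atp5c1, the gamma subunit of the rotating stalk, at -0.30 ± 0.31 (adjusted p 0.42 by limma); it read 0.11 higher on day 5, and its other probe gave an opposite day slope. Atp5sl, at the upper end of the group with 0.02, is now named Dmac2 and is not a subunit of ATP synthase. Atp5s, also placed here by its name, is now named Dmac2l.

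Complex IV held the widest spread, between -0.67 for Cox6a2 and 0.17 for Cox8b. Cox6a2, the heart and skeletal muscle form of subunit 6A, read 23.8, 43.4, 93.8 and 73.5 on days 2, 4, 5 and 6 in Dnmt3a-KO cells. In WT cells it read 40.1, 102, 123 and 90.1. The Dnmt3a-KO signal was lower on every day while the ranges over days overlap. The differences were -0.75, -1.23, -0.39 and -0.29 log2, a mean of -0.67 ± 0.43 (SD over 4 days), with an adjusted p of 0.29 by limma (unadjusted 0.011). Leaving out day 4, the day of the largest gap, gave -0.48. Its probe lies at chr7:135349160-135349219 (mm9, minus strand).

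Only 1 gene of the 82 was lower by 2-fold or more on a single day, Cox6a2 on day 4 (3.07% of all genes on that day). Only 1 was higher, Ndufa4l2 on day 2 (1.89%), and these are single arrays with no test. At 1.5-fold, Cox6b2 and Ndufa4l2 were higher (5.25% of all genes) and Cox6a2 lower (4.23%) in Dnmt3a-KO cells on day 2, and Cox6a2, Cox7a1 and Ndufab1 lower on day 4 (7.84%). Ndufa4l2, a paralogue of Ndufa4 known for its induction in low oxygen, was dim. On day 2 it read 0.0235 in Dnmt3a-KO cells and 0.00842, not well above background, in WT cells, at least 2.41-fold higher in Dnmt3a-KO. On days 4, 5 and 6 it read 0.0149, 0.0410 and 0.0162 in Dnmt3a-KO cells, against 0.0198, 0.0539 and 0.0235 in WT cells, lower each time, with the Dnmt3a-KO array of day 6 not well above background.

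The second question is how the genes changed over differentiation in both genotypes. Across days 2 to 6, 33 of the 82 genes rose and 3 fell at an adjusted p under 0.05 in limma's fit of log2 signal on day with genotype as a covariate, where 25.9% of all genes rose and 19.5% fell. The median slope was 0.12 log2 per day, against 0.03 for all genes. Nearly all of this was a step between day 2 and day 4, with a median of 0.37 log2 in Dnmt3a-KO and 0.59 in WT cells (0.07 and 0.10 over all genes). The later steps had medians of -0.03 and 0.12 in Dnmt3a-KO cells and -0.06 and -0.09 in WT cells. All 6 later arrays lay above both day 2 arrays for 63 of the 82 genes (38.1% of all genes), below both for 8 (29.7%), and neither for 11.

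Day 2 also differs from the later days in slide, scanner, software and the sex-linked transcripts, so differentiation and these features cannot be told apart in that step. Without day 2 no slope of a member passed and the median was -0.02 log2 per day; with slide as a block it was -0.04, again with 0 members called, and without day 5 the count was also 0.

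**Figure D2:**
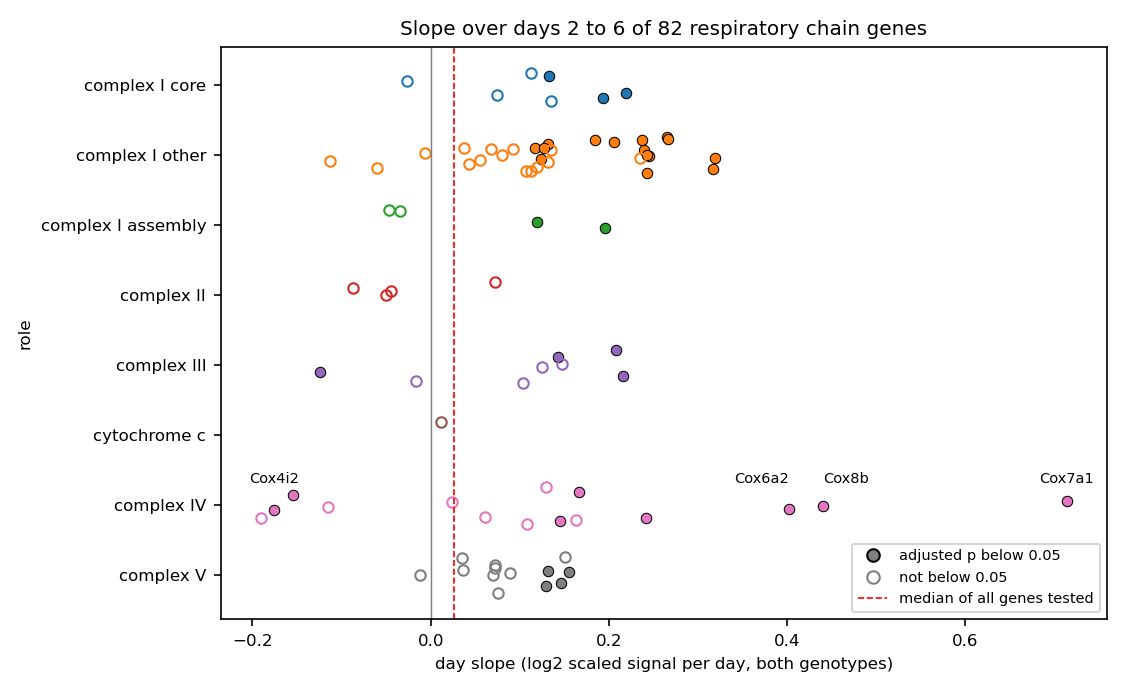
Slope of log2 scaled signal per day (horizontal axis, both genotypes together, days 2 to 6) for 82 respiratory chain genes by role. Each point is 1 gene, filled where the adjusted p was below 0.05, and the red dashed line is the median of all genes tested (0.03); 33 filled points lie above 0 and 3 below, and the muscle forms Cox7a1, Cox8b and Cox6a2 lie farthest to the right.

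By role, 3 of the 7 core subunits of complex I rose, 15 of the 30 others with Nduf names and 2 of the 4 assembly factors. So did 3 of the 8 complex III genes, 6 of the 15 complex IV genes and 4 of the 13 complex V genes. Of all genes 25.9% rose and 19.5% fell. Complex V, where 30.8% rose, was the role nearest to the all-gene share. No role was tested against that share. None of the 4 complex II genes passed in either direction, and their median slope was -0.05. Among accessory subunits of complex I the steepest was Ndufa3, which read 30.9, 64.0, 71.7 and 74.99 on days 2, 4, 5 and 6 in Dnmt3a-KO cells, and 31.3, 72.4, 70.6 and 72.3 in WT cells. Its slope was 0.32 ± 0.06 log2 per day (SE), with an adjusted p of 0.013 by limma. The 6 later arrays all lay above the 2 arrays of day 2.

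Ndufa13, an accessory subunit also known as GRIM-19, read 99.97, 222, 220.2 and 244 in Dnmt3a-KO cells and 95.4, 213, 232 and 214 in WT cells, with the same slope of 0.32. Ndufb4, Ndufa6, Ndufb5, Ndufv3 and Ndufa1, accessory subunits too, had slopes of 0.24 to 0.27. Among the core subunits Ndufs8 had the lowest slope at -0.03, which did not pass. The assembly factor Ndufaf3 had a slope of 0.20 (adjusted p 0.012 by limma) and Ndufaf4 one of -0.05, which did not pass.

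In complex III the small subunits Uqcrb and Uqcrq rose at 0.22 and 0.21 log2 per day, while Cyc1 fell by 0.12 per day (adjusted p 0.023 by limma). In complex V the c-ring gene Atp5g2 rose most, at 0.16, with signals of 69.7, 92.5, 88.1 and 109 in Dnmt3a-KO cells and 64.2, 102, 96.8 and 101 in WT cells. The brightest probe of Cycs, which stood for the gene, had a slope of 0.01 log2 per day and did not pass. A dimmer Cycs probe, well above background on all 8 arrays, had a slope of 0.15, with a step between days 2 and 4 of 0.62 log2 in Dnmt3a-KO and 0.66 in WT cells, and was not tested. Atp5c1 had a slope of -0.01, which did not pass.

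The other 2 genes that fell are both in complex IV. Cox6a1, the widely expressed form of subunit 6A, read 164, 97.0, 105 and 101 in Dnmt3a-KO cells and 168, 115, 115 and 117 in WT cells, a slope of -0.15 (adjusted p 0.033 by limma). Cox4i2, a form of subunit 4 known from lung and from low oxygen, was dim, at 0.126, 0.0881, 0.0814 and 0.0830 in Dnmt3a-KO cells and 0.128, 0.0783, 0.0940 and 0.0700 in WT cells. Its slope was -0.18 (adjusted p 0.020).

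The 3 steepest rises of the whole chain were the muscle forms of complex IV subunits. Cox7a1 read 2.66, 11.4, 13.9 and 15.3 on days 2, 4, 5 and 6 in Dnmt3a-KO cells, and 1.97, 21.0, 20.0 and 15.2 in WT cells. The WT signal was the higher one on days 4 and 5 and the Dnmt3a-KO signal on day 2. Its slope was 0.71 ± 0.16 log2 per day (SE; adjusted p 0.016 by limma). Cox8b read 19.2, 55.2, 59.3 and 63.4 in Dnmt3a-KO cells, and 14.8, 63.2, 57.7 and 46.9 in WT cells, a slope of 0.44 ± 0.11 (adjusted p 0.020). Cox6a2, with the values given above, had a slope of 0.40 ± 0.09 (adjusted p 0.017).

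Because the 2 forms of a subunit are measured on the same array, the change of their within-array difference does not depend on the scaling factor. The difference of the muscle form minus the widely expressed form grew by 0.56 ± 0.12 log2 per day for Cox6a2 over Cox6a1 (SE; adjusted p 0.014 by limma), by 0.55 ± 0.11 for Cox7a1 over Cox7a2 (adjusted p 0.014) and by 0.56 ± 0.14 for Cox8b over Cox8a (adjusted p 0.019). In Dnmt3a-KO cells day 4 exceeded day 2 by 1.63, 1.44 and 2.02 log2 in these pairs, and in WT cells by 1.89, 2.39 and 2.44. The slopes of the pairs without day 2 were 0.12, 0.08 and -0.08 and without day 5 were 0.50, 0.52 and 0.52, none of which passed.

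Between genotypes no pair passed. Cox6a2 over Cox6a1 differed by -0.51 log2 (adjusted p 0.34 by limma), Cox7a1 over Cox7a2 by -0.15 and Cox8b over Cox8a by 0.16. For Cox6b2, a testis form, over Cox6b1 the slope was -0.25 per day (adjusted p 0.051), and for Ndufa4l2 over Ndufa4 it was 0.14 (adjusted p 0.52). Cox4i2 over Cox4i1 was not computed, since Cox4i1 had no usable spot on 1 array.

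**Figure D3:**
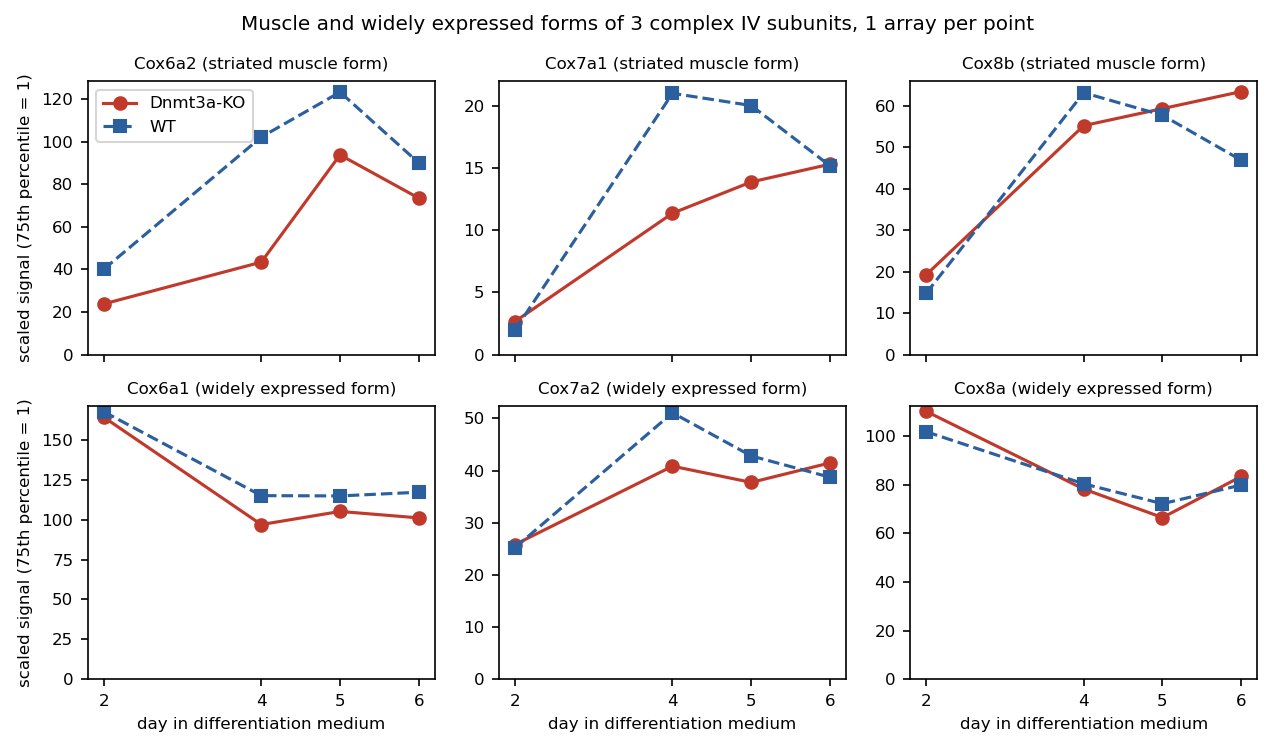
Scaled signal (vertical axis, 1 equals the array's 75th percentile) by day in differentiation medium for the muscle forms Cox6a2, Cox7a1 and Cox8b (top) and the widely expressed forms Cox6a1, Cox7a2 and Cox8a (bottom), with 1 array per point, Dnmt3a-KO in red circles and WT in blue squares. The muscle forms lie higher on days 4 to 6 than on day 2 in both genotypes, and Cox6a2 lies lower in Dnmt3a-KO than in WT cells on each day.

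The Cox7a1 probe, shown because this gene had the steepest slope, is 60 bases long and maps to chr7:30970337-30970948 (mm9, plus strand), a span of 612 bases, so that it covers more than one stretch of the genome.

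Cox7a1 probe: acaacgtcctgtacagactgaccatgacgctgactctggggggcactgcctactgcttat

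The 250 bases upstream of the start are shown for the forms with an entry in the RefSeq promoter table (GRCm38.p6), so that muscle and widely expressed forms can be compared. The table has an entry for 73 of the 89 genes. Several motifs were searched on both strands and stand in capitals: GCGCATG, found within the site of nuclear respiratory factor 1; CCGGAAG, an ETS site of the kind bound by GABP; and CANNTG, the E-box of myogenic factors.

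Cox7a1, chr7:30183921-30184170, plus strand: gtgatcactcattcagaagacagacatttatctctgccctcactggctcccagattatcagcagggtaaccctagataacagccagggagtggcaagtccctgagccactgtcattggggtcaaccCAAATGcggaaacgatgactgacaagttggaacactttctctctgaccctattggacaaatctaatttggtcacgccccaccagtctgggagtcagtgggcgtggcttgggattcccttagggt
Cox7a2, chr9:79759854-79760103, minus strand: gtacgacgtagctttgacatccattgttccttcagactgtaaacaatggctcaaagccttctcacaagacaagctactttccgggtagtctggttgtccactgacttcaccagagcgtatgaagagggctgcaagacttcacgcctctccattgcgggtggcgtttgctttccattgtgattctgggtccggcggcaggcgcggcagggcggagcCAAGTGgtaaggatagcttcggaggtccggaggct
Cox8b, chr7:140900447-140900696, minus strand: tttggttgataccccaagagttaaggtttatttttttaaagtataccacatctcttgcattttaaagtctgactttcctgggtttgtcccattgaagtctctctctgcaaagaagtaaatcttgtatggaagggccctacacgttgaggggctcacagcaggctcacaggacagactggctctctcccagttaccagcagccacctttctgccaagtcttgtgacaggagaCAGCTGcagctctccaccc
Cox8a, chr19:7217617-7217866, minus strand: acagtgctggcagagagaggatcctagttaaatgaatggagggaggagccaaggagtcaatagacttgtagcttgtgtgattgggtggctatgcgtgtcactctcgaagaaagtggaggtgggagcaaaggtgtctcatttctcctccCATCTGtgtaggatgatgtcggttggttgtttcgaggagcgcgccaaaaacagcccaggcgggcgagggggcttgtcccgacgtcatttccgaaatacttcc
Cox6a1, chr5:115348959-115349208, minus strand: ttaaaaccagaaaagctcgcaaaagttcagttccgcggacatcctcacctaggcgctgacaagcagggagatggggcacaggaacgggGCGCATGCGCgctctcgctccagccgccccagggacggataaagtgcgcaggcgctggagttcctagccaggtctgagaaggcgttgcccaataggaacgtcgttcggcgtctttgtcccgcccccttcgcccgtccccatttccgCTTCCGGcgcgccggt

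Cox6a1 was the one promoter of the 5 with the nuclear respiratory factor 1 letters (2 overlapping matches, 1 per strand) and the ETS letters (1 match), and it held no E-box. The other 4 held 1 E-box each and neither of the other motifs; that of Cox8b was CAGCTG. Of all 27025 genes with an entry, 3.68% held GCGCATG, 7.83% CCGGAAG, 69.3% CANNTG and 14.7% CAGCTG, which is one spelling of CANNTG. Over the 73 respiratory chain genes the shares were 16.4%, 17.8%, 64.4% and 8.22%. The first of these shares rests on 12 genes, among them Cox6a1, Atp5g2, Cycs, Ndufa6 and Sdhb. These are matches of letters and not sites of binding, and the upstream G and C content of the 5 shown ranged between 47.2% for Cox8b and 62.8% for Cox6a1.

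Other genes of mitochondrial energy metabolism were taken from lists for comparison. The subunits encoded by mitochondrial DNA had a probe for 12 genes and 11 could be tested. Their median differences over days 2, 4, 5 and 6 were 0.06, -0.33, -0.36 and 0.01, with 11 of 11 below 0 on days 4 and 5. COX1, a catalytic subunit of complex IV, read 159.6, 213, 225 and 260.3 in Dnmt3a-KO cells, against 159.75, 274, 258 and 276 in WT cells. By day, 3 of the 11 rose (COX1, COX2 and ND6), or 27.3%, and 1 fell (ND5), or 9.09%, where 25.9% of all genes rose and 19.5% fell.

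The citrate cycle and pyruvate dehydrogenase list had medians of -0.02, -0.23, -0.21 and 0.04 over 18 genes, and 4 rose and 1 fell with day (22.2% and 5.56%, against 25.9% and 19.5% of all genes). Fatty acid oxidation (16 genes) had 0.01, -0.15, -0.21 and 0.05, with 6 that rose (37.5%). Sarcomere genes (23 tested of 28) had 0.21, -0.27, -0.27 and 0.05, with 14 that rose (60.9%) and 2 that fell (8.70%). Assembly factors outside the naming rule (27 tested of 30) had -0.00049, -0.01, -0.09 and 0.06, with 12 that rose (44.4%) and 4 that fell (14.8%). In none of these lists did a gene pass the test of genotype.

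**Figure D4:**
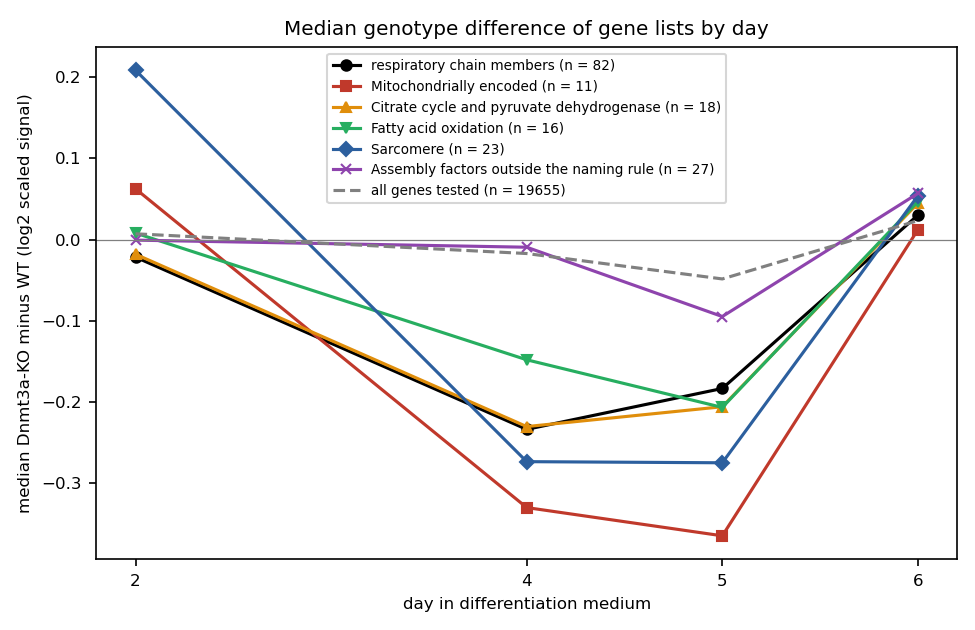
Median Dnmt3a-KO minus WT difference in log2 scaled signal (vertical axis) by day in differentiation medium for the respiratory chain genes, 5 other gene lists and all genes tested, with 1 array per genotype and day. Apart from assembly factors and all genes tested, the medians drawn lie between -0.15 and -0.36 on days 4 and 5. On day 6 each lies within 0.06 of 0. The lists of mitochondrial biogenesis (-0.09 on day 4) and of energy transfer and carriers (-0.08 on day 6) are not drawn.

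Of the regulators of mitochondrial biogenesis, 6 of 21 rose with day (28.6%) and 2 fell (9.52%), near or below the 25.9% and 19.5% of all genes. Their median differences between genotypes over days 2, 4, 5 and 6 were -0.02, -0.09, -0.19 and 0.03. Sirt3, a mitochondrial deacetylase, had a slope of 0.39, and Ppargc1b, a coactivator, one of -0.43. Ppargc1a, its better known relative, read 0.483, 0.279, 0.251 and 0.367 in Dnmt3a-KO cells, against 0.515, 0.513, 0.419 and 0.216 in WT cells, lower on days 2, 4 and 5 and higher on day 6, with no slope or genotype call. In the energy transfer and carrier list the median differences over days 2, 4, 5 and 6 were -0.11, -0.21, -0.23 and -0.08. With day, 6 of its 12 genes rose and 1 fell, where 25.9% of all genes rose and 19.5% fell. The mean difference over the 4 days was below 0 for all 12 genes of the list, against 53.0% of all genes. The lowest was Ckmt2, the creatine kinase of muscle mitochondria, which read 0.369, 2.20, 3.08 and 2.65 in Dnmt3a-KO cells, against 0.793, 12.7, 13.3 and 4.35 in WT cells. It was lower on 4 of 4 days by -1.62 ± 0.85 log2 (SD), with an adjusted p of 0.21 by limma.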

How the data were processed

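Total RNA was labelled with Cy3 and hybridised to 8 one-colour Agilent arrays, 1 per genotype and day. Per the submitters' processing notes, signals were read with Agilent Feature Extraction 9.5; the file headers give 11.0.1.1 for day 2, 9.5.3.1 for the other days, and the mm9 (NCBI37) build for probes. The intensity used was the processed signal in the deposited scanner files, background-subtracted by that software. The deposited score table, tried as an alternative, is 100 times that signal over its 75th percentile on all spots, rounded (within 1 for 100% of values).

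Here each signal was divided by the 75th percentile of its array's 43020 spots that are not controls, floored at 0.00763 (-7.03 log2, the lowest signal well above background on any array) and put on the log2 scale. Spots that the software marked as uneven, or as outliers among replicate spots, were not used, and 273 probes were lost by this. Spots of a probe were averaged, the probe with the highest mean stood for a gene, and the 19655 of 31732 genes well above background on at least 4 arrays were tested with limma 3.58.1 in R 4.3.3 (lmFit, eBayes, Benjamini-Hochberg). The genotype effect had day as a block, since both genotypes of a day shared a slide, leaving 3 residual degrees of freedom; the day slope had genotype as a covariate (5). Fits were tested on simulated data. The number of arrays limits the precision.

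Named genes were, per role, the highest and lowest in each effect, both forms of each isoform pair, genes called by genotype or interaction, at most 10 of the largest called rises and of the largest called falls by day, genes past 2-fold on a day and those whose probes disagreed in sign; 1 gene that this names is not reported here. Members, lists and this rule were chosen with earlier results of these data known. Probes of Atp5l, Cox7c and Uqcrq disagreed in sign between genotypes, and of Atp5c1, Atp5f1 and Sdhc by day, among 21 genes with 2 or more probes well above background on every array.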

Additional observations from a re-analysis of the deposited data

Results flagged for a closer look

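The genes left out of the tests still had signal. Atp5b, the catalytic beta subunit of ATP synthase, was well above background on all 6 arrays with a usable spot. Atp5e, Atp5g3, Cox4i1 and Ndufa2 were so on 7 arrays each. On the days with both genotypes usable, Dnmt3a-KO minus WT ran between -0.25 and 0.17 log2 for Atp5b, between -0.07 and 0.18 for Atp5e, between -0.35 and -0.06 for Atp5g3, between -0.22 and 0.05 for Cox4i1, and between -0.36 and 0.04 for Ndufa2, over 3 days each and with no test. Cox4i1, the widely expressed form of complex IV subunit 4, read 125, 130, 125 and 135 in Dnmt3a-KO cells on days 2, 4, 5 and 6, against 125, 145 and 131 in WT cells on days 2, 5 and 6.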

How the results depend on the processing

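No respiratory chain gene passed the test of genotype under any of the 17 alternatives, and the members' median stayed below 0 (-0.14 to -0.06). Over all genes the count of 2 became 0 with quantile scaling, median scaling, the deposited score, no filter on dim genes, the mean of all probes or no replicate block (genotype without the day pairing), 35 with normexp, 38 with genes well above background on all 8 arrays, 93 with an intensity trend, 14 with array weights, 128 with day as a random block and 19 with slide as a block; leaving out a day gave 0 to 3. Median scaling put the members at -0.18 on day 4 and -0.08 on day 5, and all genes at 0.04 and 0.05. The day slope depended on day 2. With slide as a block or with either genotype alone, 0 genes of the array and 0 members passed. With slide as a random block 918 genes rose and 1017 fell, of which 2 and 0 were members. Array weights gave 54 members that rose and 7 that fell (5767 of all genes fell), quantile scaling 5 and normexp 6 that fell. Leaving out a day gave 0 to 5651 genes that rose, 0 to 4212 that fell, 0 to 45 members that rose and 0 to 4 that fell. The members' median slope was 0.059 with quantile scaling, 0.11 with median scaling, 0.073 with normexp, 0.13 with array weights, -0.038 with slide as a block, 0.097 with slide as a random block, and -0.017 to 0.16 when a day was left out. At 1.5-fold, 2 members were higher (5.25% of all genes) and 1 lower (4.23%) in Dnmt3a-KO on day 2, 3 in all, and 3 were lower on day 4 (7.84%); with normexp, or with genes well above background on all 8 arrays, 0 passed on day 2.

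Isoform pairs without a day ranged between 0.12 and 0.81 log2 per day for Cox6a2 over Cox6a1, 0.085 and 0.77 for Cox7a1 over Cox7a2, -0.078 and 0.85 for Cox8b over Cox8a, and -0.40 and 0.088 for Cox6b2 over Cox6b1. Cox8b over Cox8a, at 0.56 with no filter, had an adjusted p of 0.052; Cox6b2 over Cox6b1 passed with normexp (-0.22) and with genes well above background on all 8 arrays (-0.25). With slide as a block the slope changed sign for Atp5g2 (-0.074), Cox4i2 (0.075), Cox6a1 (0.058), Cox7c (-0.069), Cox8b (-0.013), Cyc1 (0.022), Ndufa6 (-0.018), Ndufaf1 (-0.12), Ndufb4 (-0.080), Ndufb5 (-0.044), Ndufv3 (-0.11) and Uqcrb (-0.089). Without day 2 it did so for 5 genes, whose slopes with a day left out ranged between these values: Cox6a1 -0.22 and 0.022, Cox7a1 -0.00985 and 1.02, Cox8b -0.058 and 0.64, Ndufv3 -0.083 and 0.37, Uqcrb -0.016 and 0.29. These fits hold fewer days; the cause was not tested otherwise. Keeping the marked spots was chosen after seeing the data and changed no call of a member.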
